A study of Ursus arctos with 12 samples.

Results

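The 10 fibrillar collagen genes COL1A1, COL1A2, COL2A1, COL3A1, COL5A1, COL5A2, COL5A3, COL11A1, COL24A1 and COL27A1 were taken from the muscle transcriptome of brown bears (Ursus arctos) by their gene symbols, as members of 1 protein family. All 10 were listed among the 30249 genes counted, and all 10 passed the minimum of 30 reads summed over the 12 libraries, as did 17290 genes in all. The libraries came from biopsies of the vastus lateralis, a thigh muscle, of 6 free-ranging bears aged 2 to 3 years. Each bear was sampled under anesthesia during hibernation (winter, 6 libraries) and again when active (summer, 6 libraries). The labels give no treatment, and the season was the contrast made. The fasting, inactivity and lower body temperature that belong to hibernation, and anything else that differed between the captures, cannot be told apart here.

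Fibrillar collagens are the rope-like proteins that give connective tissue its tensile strength. Each molecule is a triple helix of 3 chains, which is secreted as procollagen, trimmed outside the cell and assembled side by side into fibrils that are then crosslinked. In skeletal muscle, fibroblasts of the sheaths around fibers, fascicles and the whole muscle make most of them. Type I collagen, built from the COL1A1 and COL1A2 chains, and type III collagen, a homotrimer of COL3A1, form the bulk of muscle fibrils. Type V collagen, from COL5A1, COL5A2 and COL5A3, sits within these fibrils and controls how they start and how thick they grow. Types II and XI are typical of cartilage, and types XXIV and XXVII are minor members with a shorter or interrupted helix.

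Between 16742406 and 32140160 reads per library were counted on genes. The 14 skeletal muscle markers, such as the creatine kinase CKM and titin (TTN), summed to 123000 to 204000 in summer and 134000 to 180000 in winter, in CPM (reads on a gene scaled by the size of its library), so muscle transcripts were abundant throughout. One library stood apart, the winter library of bear 1509, at −98.6 on the second principal component, which held 14.6% of the variance, against 6.3 to 23.1 for the other winter libraries. The fitted changes of the chains of types I, III and V are given with and without it, as are some, but not all, other values in which this library was extreme.

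Fibrillar collagen mRNA was far scarcer in hibernating than in active muscle. In summer the 10 genes together took 0.363% of the library's reads in the lowest bear, 0.755% at the median and 1.13% in the highest. In winter they took 0.0155% in the lowest (95% Wilson interval 0.015 to 0.016), 0.0249% at the median and 0.129% in the highest (0.127 to 0.131). Without bear 1509, the highest winter share was 0.0838%, in bear 1511. The highest winter library, that of bear 1509, was still below the lowest summer library, that of bear 1316 (0.36 to 0.365). These intervals cover counting error only. In a whole biopsy, fewer collagen-making cells and less collagen mRNA per cell cannot be told apart.

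Winter was compared with summer by the quasi-likelihood test of edgeR, with season as the only term, so the pairing by bear was not used. The p-values were adjusted by Benjamini-Hochberg over all 17290 genes. At an adjusted p below 0.05, 8 of the 10 genes were lower in winter. Of all genes tested, 19.9% were called lower. The genes called were both type I chains, the type III chain, the 3 type V chains, COL2A1 and COL27A1, while COL11A1 and COL24A1 were not called. In the opposite direction edgeR called 0 of the 10, and 0 had an unadjusted p below 0.05. DESeq2 and limma voom also called 0. The median log2 fold change of the 10 genes (winter/summer) was −2.36, against 0 for all genes tested. The winter level was below the summer level of the same bear in 6 of 6 bears for 7 of the genes, as for 19.0% of all genes. For 6 of the genes, the chains of types I, III and V, every winter library lay below every summer library, a pattern that 8.21% of all genes showed. Without the winter library of bear 1509, 7 of the 10 were lower, COL27A1 being the one lost. With each bear compared with itself, edgeR and DESeq2 each called 7 lower, again without COL27A1.

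**Figure D1:**
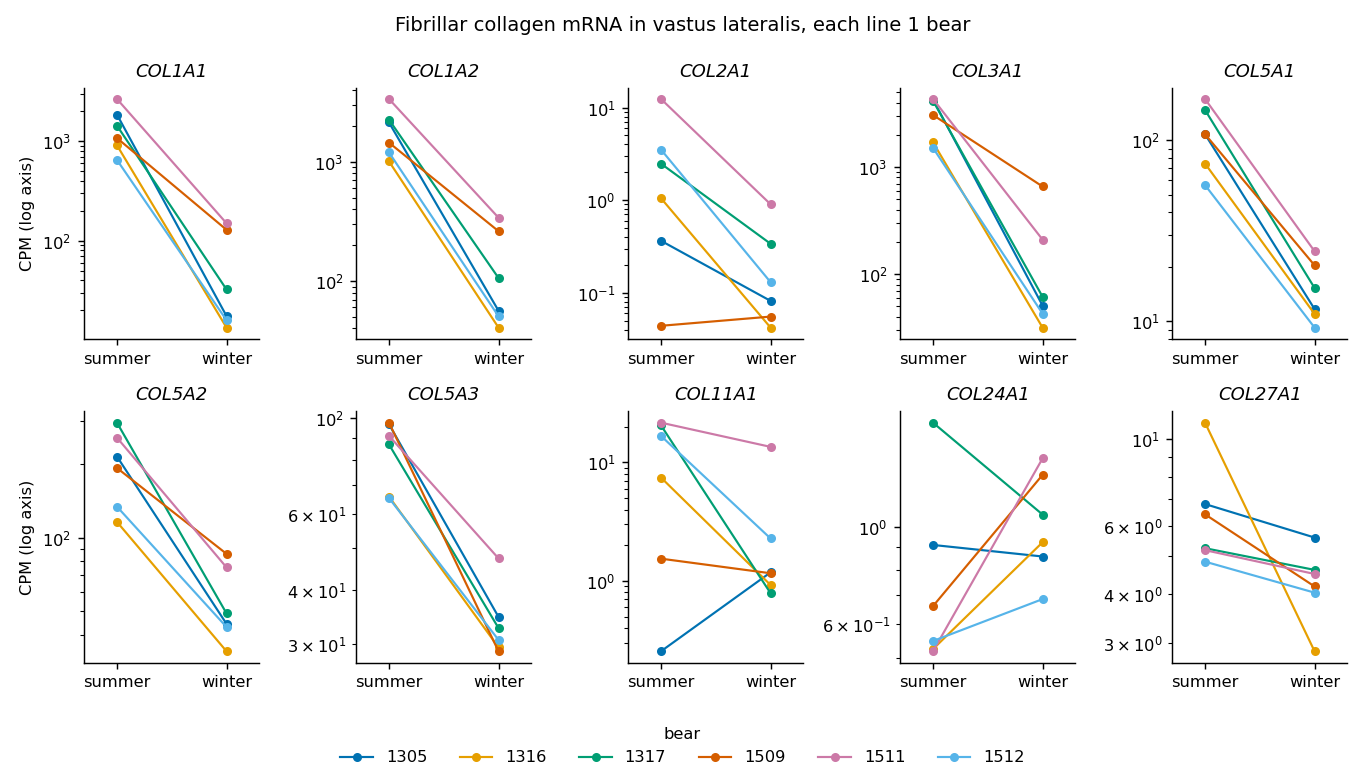
Level of each fibrillar collagen gene, as CPM on a log axis scaled to each panel, in summer and winter, with 1 line for each of the 6 bears. The chains of types I, III and V fell in each of the 6 bears without overlap of the seasons, whereas lines cross for COL11A1 and COL24A1.

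COL1A1 encodes the alpha1 chain of type I collagen, the most abundant protein of bone, tendon and skin. Its summer level was 651 CPM in the lowest library, 1260 at the median and 2670 in the highest, from 16634 to 66893 reads. In winter it was 13.4 CPM in the lowest, 24.9 at the median and 150 in the highest, from 318 to 2488 reads. The winter libraries of bears 1509 (129 CPM) and 1511 (150 CPM) were well above the other 4, which lay between 13.4 and 32.4 CPM, and none reached the summer range. Within single bears, COL1A1 was between 8.37-fold lower in winter, in bear 1509, and 106-fold lower, in bear 1305. The fitted log2 fold change was −4.59 (SE, standard error, 0.69, adjusted p = 0.000203), which is 24.1-fold and the 9th largest fall among the 17290 genes. Without the winter library of bear 1509 it was −4.98, and with each bear compared with itself −5.17.

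COL1A2 encodes the alpha2 chain that joins alpha1 chains in the same helix. It ran from 1010 CPM in the lowest summer library through a median of 1800 to 3370 in the highest, and from 40.7 through 81.1 to 340 CPM in winter. Bears 1509 (262 CPM) and 1511 (340 CPM) were again the highest in winter, and the seasons did not overlap. COL1A2 was 13.4-fold lower in winter (log2 fold change −3.74, SE 0.56, adjusted p = 0.000203), with single bears between 5.55-fold in bear 1509 and 38-fold in bear 1305. Leaving out the winter library of bear 1509 gave −4.01, and comparing each bear with itself gave −4.13.

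COL3A1 forms type III collagen, which is plentiful in the fine, distensible fibrils around muscle fibers and vessels. In summer it lay at 1510 CPM in the lowest library, 3610 at the median and 4320 in the highest. In winter it lay at 31.7 CPM in the lowest library and 56.2 at the median. The highest winter value was 658 CPM, in bear 1509, with the next, bear 1511, at 210 CPM and the other 4 between 31.7 and 61.5 CPM. The log2 fold change was −4.17 (SE 0.75, adjusted p = 0.000748), and it was −5.32 (SE 0.57, adjusted p = 1.8e-05) without the winter library of bear 1509. With each bear compared with itself (the replicate block) it was −5.08. Single bears ranged from 4.65-fold lower in bear 1509 to 84-fold lower in bear 1305.

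The fitted falls of the type V chains, −2.85 to −1.31 on the log2 scale, were smaller than those of types I and III, at −4.59 to −3.74. Their SD over the 6 winter libraries was 0.26 to 0.54 log2 CPM, against 1.29 to 1.68 for types I and III. Without the winter library of bear 1509 these SDs were 0.27 to 0.54 and 1.05 to 1.42. COL5A1, the chain shared by nearly all type V molecules, ran from 56.6 CPM through a median of 108 to 169 in summer and from 9.25 through 13.5 to 24.4 in winter. This was a log2 fold change of −2.85 (SE 0.30, adjusted p = 1.85e-05), or 7.23-fold, with single bears between 5.32-fold and 9.64-fold lower. COL5A2, its usual partner chain, ran from 116 CPM through 204 to 296 in summer and from 34.2 through 46.6 to 85.8 in winter. Its winter values were highest in bears 1509 and 1511, as for the type I chains, and all were below the summer range. Its log2 fold change was −1.87 (SE 0.27, adjusted p = 0.000142), with single bears between 2.25-fold and 6.06-fold lower.

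COL5A3 is the third type V chain, found in fewer tissues than the other two. It ran from 65.4 CPM through 89 to 97.7 in summer and from 28.9 through 31.7 to 47.4 in winter, without overlap. Its log2 fold change of −1.31 (SE 0.15, adjusted p = 3.01e-05) was the smallest among the chains of types I, III and V. The pattern over bears also differed from that of type I, since bear 1509 had the largest of the 6 falls of COL5A3 (3.38-fold) and the smallest of the 6 falls of COL1A1, COL1A2, COL3A1, COL5A1 and COL5A2. Whether that difference exceeds chance was not tested. Without the winter library of bear 1509, the fitted changes of COL5A1, COL5A2 and COL5A3 were −2.95, −2.04 and −1.26.

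**Figure D2:**
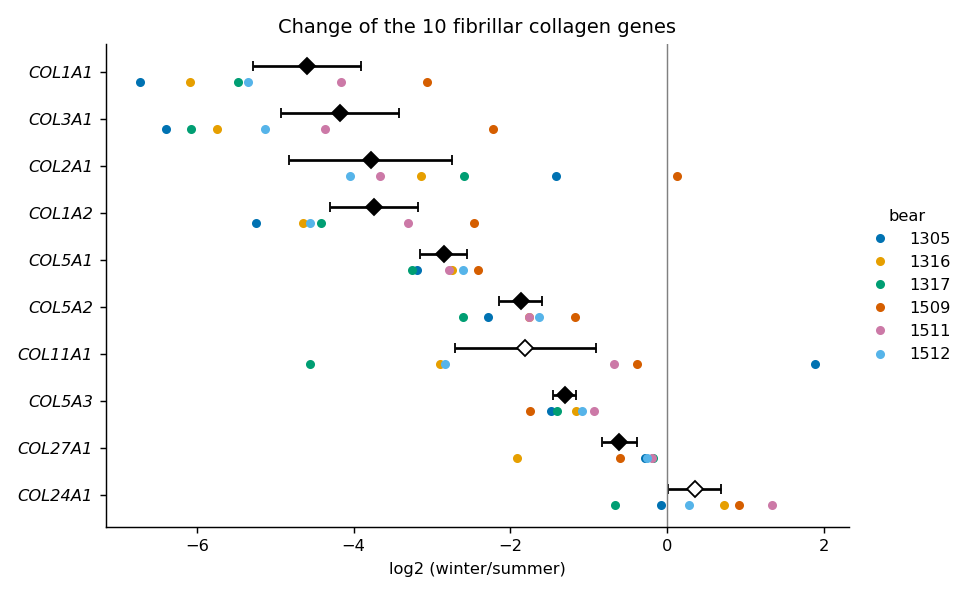
Winter/summer change of each gene on the log2 scale: diamonds are the edgeR log2 fold changes with standard errors, filled where the adjusted p was below 0.05 and open where it was not, and dots are the differences in log2 CPM of single bears. The fitted changes run from −4.59 for COL1A1 to 0.35 for COL24A1, and bear 1509 lies to the right of the other bears for COL1A1, COL1A2 and COL3A1.

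The ratio of 2 genes within 1 library does not depend on how libraries are scaled, so 4 ratios of reads were compared between the seasons of each bear by an exact two-sided paired permutation test. With 6 bears this exact permutation test cannot go below p = 0.0312, and p-values were adjusted over the 4 ratios. Gene length enters each ratio equally in both seasons, so a ratio says how 2 chains changed relative to each other and not how many molecules of each were present.

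The 2 chains of type I collagen did not fall in proportion. COL1A1 had 0.543 to 0.902 reads per COL1A2 read in summer (median 0.769) and 0.306 to 0.495 in winter (median 0.322), and the seasons did not overlap. The log2 ratio was lower in winter by a mean difference of −1.04 ± 0.37 (SD, n = 6 bears), in 6 of 6 bears (exact permutation p = 0.0312, adjusted 0.0417). COL3A1 had 1.62 to 2.88 reads per COL1A1 read in summer (median 2.31) and 1.4 to 5.08 in winter (median 2.53). This difference of 0.16 ± 0.50 on the log2 scale (SD, n = 6 bears) ran from −0.60 to 0.85 in single bears and was within their spread (exact permutation p = 0.469, adjusted 0.469). The highest winter ratio was that of bear 1509, and without this bear the mean difference was 0.02 (exact permutation p adjusted 0.938).

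COL5A2 had 0.0962 to 0.206 reads per COL1A1 read in summer (median 0.153) and 0.505 to 2.7 in winter (median 2.02). The log2 ratio rose in 6 of 6 bears, by 3.28 ± 1.05 (SD, n = 6 bears, exact permutation p = 0.0312, adjusted 0.0417), from 1.89 in bear 1509 to 4.46 in bear 1305. Within type V, COL5A1 had 0.421 to 0.657 reads per COL5A2 read in summer (median 0.531) and 0.215 to 0.324 in winter (median 0.289). This log2 ratio was lower in 6 of 6 bears, with a mean difference of −0.97 ± 0.18 (SD, n = 6 bears, exact permutation p = 0.0312, adjusted 0.0417), and was the most even of the 4 across bears. Both alpha1 chains, COL1A1 and COL5A1, fell further than the alpha2 chain of their own type.

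**Figure D3:**
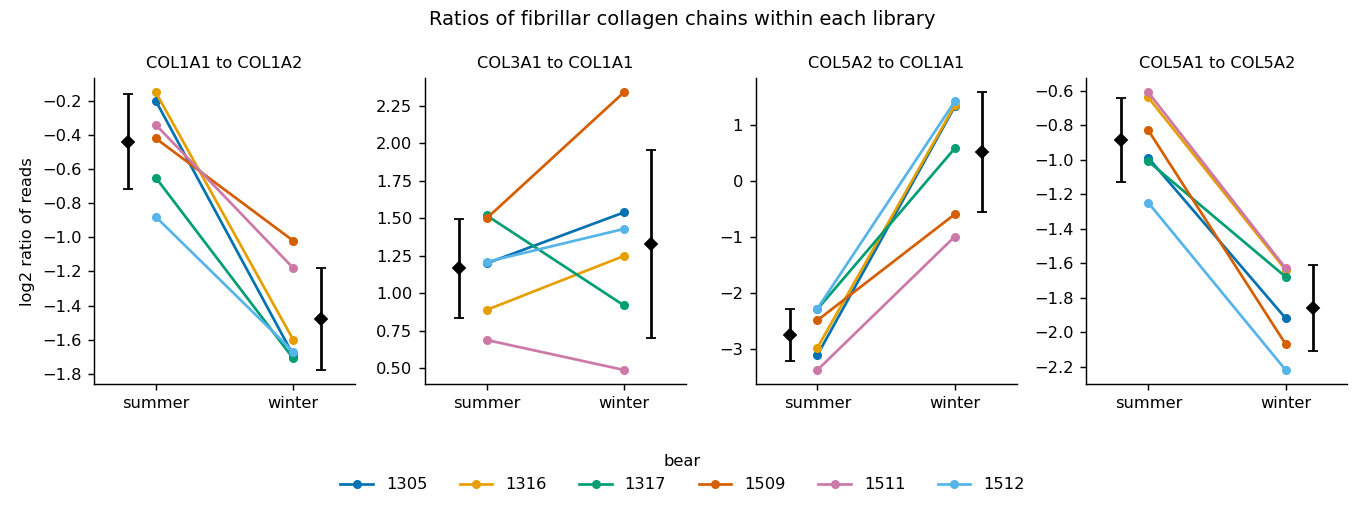
Log2 ratio of the reads of 2 fibrillar collagen genes within each library, with 1 line per bear and diamonds for the mean of each season with its SD (n = 6). COL1A1 to COL1A2 and COL5A1 to COL5A2 were lower, and COL5A2 to COL1A1 higher, in winter in 6 of 6 bears, while COL3A1 to COL1A1 moved in both directions.

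The make-up of the fibrillar collagen reads shifted with these ratios. The type V chains held 4.73 to 7.05% of the reads of the 10 genes in summer (median 6.43%) and 11.3 to 45.2% in winter (median 36.2%). The lowest winter share was that of bear 1509, and the next was 17% in bear 1511. COL3A1 held 39.6 to 51% in summer and 19.2 to 24.2% in 5 of the winter libraries, but 55.2% in the winter library of bear 1509. COL1A1 held 17.1 to 24.5% in summer and 7.83 to 17.3% in winter, and COL1A2 24.2 to 32.9% and 22 to 39.2%. These are shares of reads, to which a longer mRNA contributes more.

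**Figure D4:**
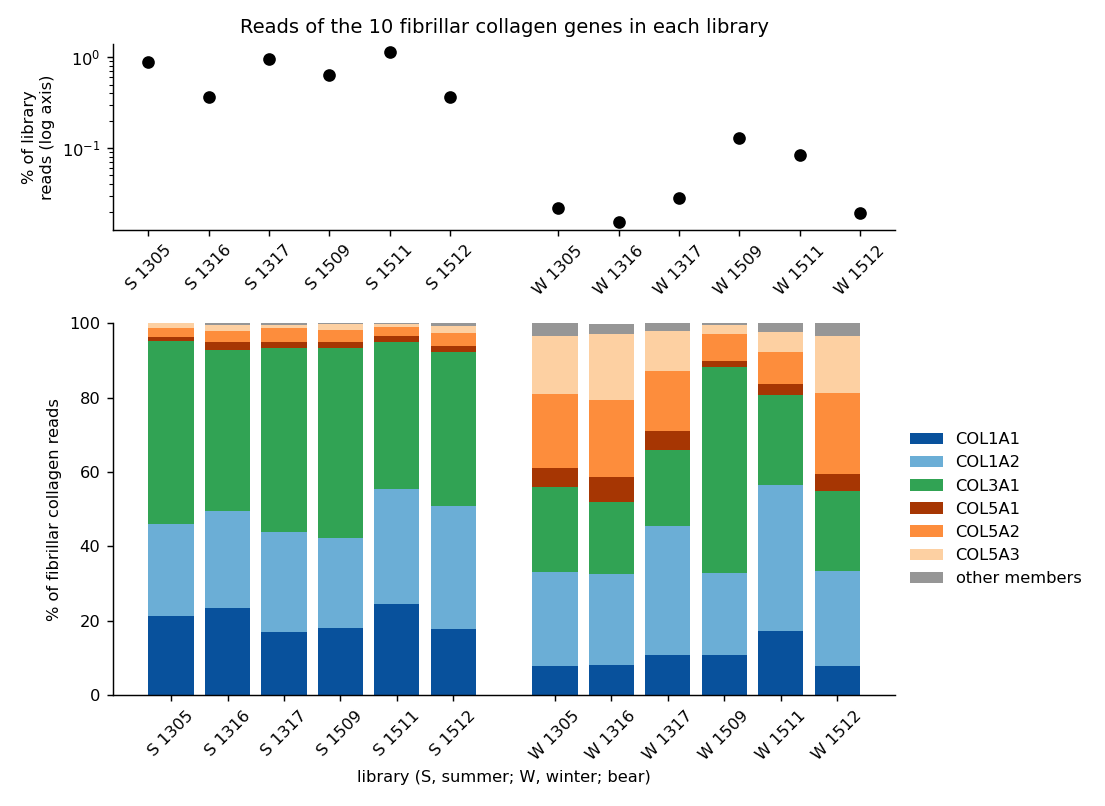
Upper panel, percent of each library's reads that fell on the 10 fibrillar collagen genes (log axis). Lower panel, percent of those reads on each gene, with COL2A1, COL11A1, COL24A1 and COL27A1 pooled as other members. In 4 of 6 winter libraries the type V chains (brown to pale orange) take 31.9 to 45.2% of the reads, and bear 1509 keeps a large COL3A1 share.

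COL2A1 forms type II collagen, the main fibril of cartilage, and was near the limit of detection. It had 1 to 311 reads per library in summer (0.0439 CPM in the lowest library, 1.76 at the median, 12.4 in the highest) and 1 to 15 reads in winter (0.042, 0.106 and 0.903 CPM). Bear 1511 was the highest in both seasons and bear 1509 had 1 read in each, so the seasons overlapped and 5 of 6 bears were lower in winter. The log2 fold change was −3.78 (SE 1.04, adjusted p = 0.0106), and limma voom did not call it (−2.91, adjusted p = 0.121). 

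COL11A1, a chain of type XI collagen that nucleates thin fibrils in cartilage and is also made in developing tendon, varied widely between bears in both seasons. It ran from 0.255 CPM in bear 1305 through a median of 12.1 to 21.6 in bear 1511 in summer, and from 0.788 through 1.17 to 13.5 in winter, the last again in bear 1511. The other winter libraries were at 0.788 to 2.28 CPM. It was lower in 5 of 6 bears and higher in bear 1305, and its log2 fold change of −1.81 (SE 0.90, adjusted p = 0.124) was not called. Without bear 1511 it was −2.84 (adjusted p = 0.0201). The other type XI chain gene, COL11A2, which is not among the 10 and was looked at after the values of COL11A1 were seen, was at 2.11 to 29 CPM in summer and 4.86 to 44.9 in winter. Its highest value in each season was also in bear 1511 (log2 fold change 0.28, SE 0.65, adjusted p = 0.755).

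Markers of tendon and cartilage were read in the same libraries as COL2A1 and COL11A1. The 8 tendon cell markers, which include tenomodulin (TNMD) and the matrix protein COMP, summed to 163 to 832 CPM in summer and 33.2 to 638 in winter. In summer their sum followed the same order of bears as COL11A1, from 163 CPM in bear 1305 through 266 in bear 1509, 324 in bear 1316, 694 in bear 1512 and 717 in bear 1317 to 832 in bear 1511. In winter the highest sum, 638 CPM, was in bear 1511, as for COL11A1. The second highest, 227 CPM, was in bear 1317, which had the lowest COL11A1. Among the 8, THBS4 had the highest mean in summer (8.24 log2 CPM, 4.78 in winter) and EGR1 in winter (6.09, 5.58 in summer). These 2 weigh heavily in the sums, and neither was called (adjusted p = 0.119 and 0.734). The means of TNMD were 3.66 in summer and 0.14 in winter, those of COMP 2.62 and 0.67. Of the 8, 1 was lower in winter and 0 were higher, against 19.9% and 19.6% of all genes. With the replicate block 6 were lower, but 0 in DESeq2 without it and 0 with filterByExpr. The lower count was 0 without bear 1317 and 0 without bear 1512, but 5 without bear 1511. Of the 8 cartilage markers 5 passed the read minimum, summing to 1.98 to 47.6 CPM in summer, with bear 1511 the highest, and 1.55 to 2.65 in winter. Of the 5, 2 were lower and 0 higher, against the same 19.9% and 19.6% of all genes, and limma voom called 1 lower. The 2 were ACAN and MATN3. ACAN had a log2 fold change of −5.57 (SE 1.52, adjusted p = 0.0102) on 0 to 1070 reads. MATN3 had −3.2 (SE 0.55, adjusted p = 0.000537) on 0 to 43 reads. Below the read minimum, MATN1 and EPYC had at most 1 read per library and CNMD at most 3. The part of tendon or cartilage RNA in the values of COL2A1 and COL11A1 was not tested.

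COL24A1 and COL27A1 were scarce. COL24A1, whose product is best known from developing bone, had 11 to 40 reads per library in summer and 19 to 24 in winter. This was 0.519 CPM in the lowest summer library, 0.603 at the median and 1.74 in the highest, against 0.684, 0.997 and 1.44 in winter. It was higher in winter in 4 of 6 bears and lower in the other two, with a log2 fold change of 0.35 (SE 0.34, adjusted p = 0.434). The differences of single bears ran from −0.66 to 1.34. COL27A1, which organizes the matrix of growing cartilage, ran from 4.85 CPM through 5.83 to 11 in summer and from 2.86 through 4.35 to 5.59 in winter. It was lower in 6 of 6 bears, but by 0.18 to 0.60 on the log2 scale in 5 of them, with a difference of −1.92 in bear 1316. Its log2 fold change of −0.61 (SE 0.22, adjusted p = 0.0365) was −0.57 (adjusted p = 0.0716) with the replicate block and −0.31 (adjusted p = 0.156) without bear 1316. It was not called without bear 1317 (0.0506), 1509 (0.0749) or 1512 (0.0506) either.

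Of 14 tested markers of fibroblasts that are not themselves matrix proteins, 8 were lower in winter, among them the surface proteins THY1 and CD34, and 0 were higher, with a median log2 fold change of −0.97. The other 6 did not pass, among them the growth factor receptors PDGFRA (adjusted p = 0.0772) and PDGFRB (adjusted p = 0.0605). Of all genes, 19.9% were lower and 19.6% higher. Their summed level was 528 to 743 CPM in summer and 246 to 458 CPM in winter, without overlap, and the highest winter sum was in bear 1511. Their part in the collagen values was not tested. Outside these 14, and given below, PRRX1, a factor of mesenchymal cells, rose in winter, whereas FAP and ITGA11, both of fibroblasts, fell. The markers of the other cell types moved as follows: 6 of 10 endothelial markers were lower and 2 higher (summed 701 to 1020 CPM in summer, 504 to 578 in winter), with 1 higher without bear 1305, 1317, 1511 or 1512. Of 7 macrophage markers 5 were lower and 0 higher (58.3 to 111 and 37.7 to 69.5 CPM), with 2 lower without bear 1305 or 1317 and 3 without bear 1316 or 1512. Of 8 adipocyte markers 2 were lower and 1 higher (1300 to 2260 and 525 to 1300 CPM). None was higher with the replicate block in edgeR (1 in DESeq2) or without bear 1317, 1511 or 1512. The 2 lower were GPD1 and FABP4, whose means (9.88 and 8.73 log2 CPM in summer) were the highest and weigh most in these sums. The 1 higher was LEP, on 0 to 19 reads. ADIPOQ (adjusted p = 0.447), PLIN1 (0.428), CIDEC (0.0553), CIDEA (0.148) and CFD (0.983) were not called. Of the 14 skeletal muscle markers 4 were lower and 2 higher, with 2 lower without bear 1305 and 1 without bear 1316. For the counts of 0 among the markers, edgeR gave 0 higher without adjustment as well, and DESeq2 and limma voom gave 0.

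The genes whose products modify, cut, crosslink, bind, sense, degrade or control fibrillar collagens gave 51 of 99 tested lower in winter and 9 higher, against 19.9% and 19.6% of all genes, with a median log2 fold change of −0.89. Procollagen chains are hydroxylated, folded and packed for export in the endoplasmic reticulum. Of the 23 genes of these steps, 17 were lower and 2 higher. The largest called fall was that of P4HA3, a subunit of prolyl hydroxylase, at −3.98 (SE 1.12, adjusted p = 0.012) on 0 to 526 reads, and limma voom did not call it (adjusted p = 0.138). The largest rise was that of LARP6, which binds the mRNAs of type I collagen, at 0.97 (SE 0.28, adjusted p = 0.0135), not called without bear 1305 (0.0608) or bear 1317 (0.0535).

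Of the 7 tested proteinases and enhancers that trim procollagen, 3 were lower and 1 higher (2 without bear 1509), against 19.9% and 19.6% of all genes. ADAMTS2, which removes the amino-terminal propeptide, fell by 3.73 on the log2 scale (SE 0.59, adjusted p = 0.000306) in 6 of 6 bears. ADAMTS3, a relative that can cut the same propeptide, was the gene that rose in winter, its mean moving from 0.93 ± 0.53 to 2.73 ± 0.36 log2 CPM (SD, n = 6 bears), which the fit gave as 1.80 (SE 0.25, adjusted p = 0.000117), also in 6 of 6 bears. The crosslinking enzymes, 5 of the lysyl oxidase family and a transglutaminase, were all called lower, 6 of 6 genes. In edgeR, with or without adjustment, in DESeq2 and in limma voom, 0 were higher. Without bear 1317 or 1512, and under stricter limits (adjusted p below 0.01 and a fold limit), 5 were lower. The largest fall was that of LOXL2 at −3.00 (SE 0.40, adjusted p = 9.03e-05).

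Among 17 tested collagens and proteoglycans that bind to fibrils, 9 were lower and 0 higher in edgeR, against 19.9% and 19.6% of all genes. In the higher direction 0 had an unadjusted p below 0.05, and DESeq2 and limma voom called 0. With the replicate block 15 were lower, and without bear 1511 also 15. The largest fall was that of SPARC, a secreted collagen-binding protein, at −3.06 (SE 0.35, adjusted p = 3.12e-05). Of 10 tested collagen receptors 5 were lower and 1 higher, against the same shares of all genes. ITGA11, the integrin alpha chain that binds fibrillar collagen on fibroblasts, had a log2 fold change of −2.79 (SE 0.52, adjusted p = 0.000916). DDR1, a collagen-activated receptor kinase, rose by 0.50 (SE 0.17, adjusted p = 0.0317) but was not called with library totals (0.0607) or without bear 1305, 1317, 1511 or 1512 (0.0553 to 0.137).

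Of the 10 tested genes for collagen breakdown and its inhibitors, 4 were lower and 1 higher, against 19.9% and 19.6% of all genes. Without bear 1305, 1316 or 1509, 3 were lower, and without bear 1511, 5 were. FAP, a serine protease of activated fibroblasts that trims cleaved collagen, fell by 2.06 on the log2 scale (SE 0.30, adjusted p = 0.000176). TIMP4, an inhibitor of metalloproteinases, rose by 0.87 (SE 0.23, adjusted p = 0.00922). Among the 26 genes that control collagen transcription, 7 were lower and 4 higher. The share lower (7 of 26) was the closest of these lists to that of all genes. This count of 7 became 5 without bear 1316 or 1512, and 8 in DESeq2 with the replicate block. CREB3L1, a membrane-bound factor that activates COL1A1 on release from the endoplasmic reticulum, fell by 3.45 on the log2 scale (SE 0.46, adjusted p = 9.13e-05), from 2.00 ± 0.35 to −1.39 ± 1.07 log2 CPM (SD, n = 6 bears). PRRX1, a homeobox factor of mesenchymal cells, rose by 0.85 (SE 0.11, adjusted p = 5.52e-05).

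**Figure D5:**
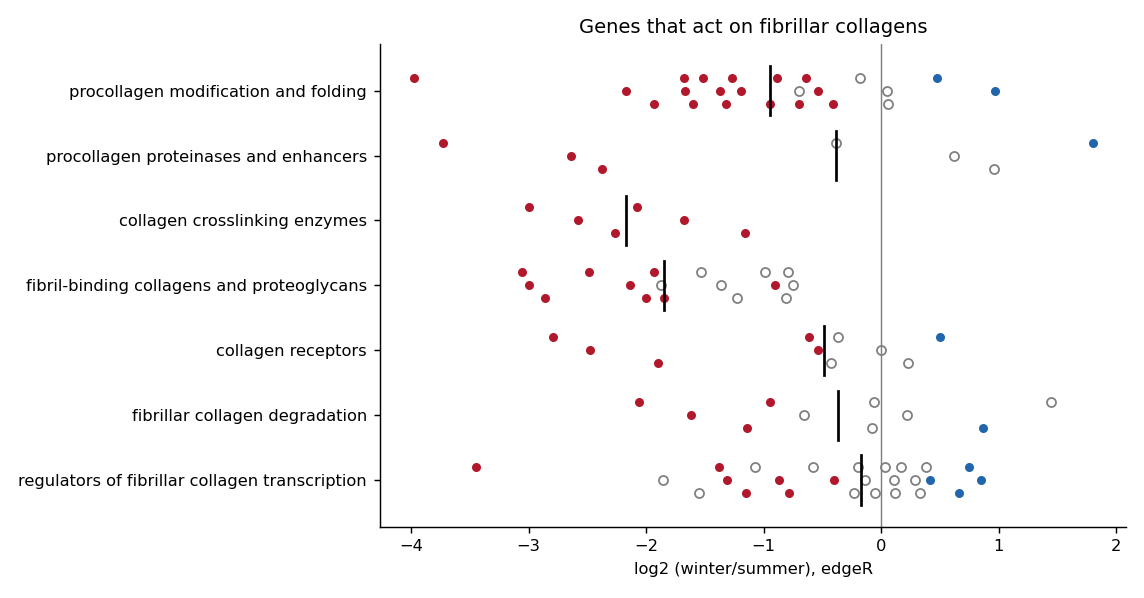
Log2 fold change (winter/summer, edgeR) of each tested gene that acts on fibrillar collagens, by list. Red marks genes called lower and blue genes called higher at an adjusted p below 0.05, open circles those not called, and the black bar is the list's median, which runs from −2.17 for the crosslinking enzymes to −0.17 for the regulators of transcription.

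Genes outside the family were ranked by how closely their log2 CPM followed the mean standardised level of COL1A1, COL1A2 and COL3A1. Genes with only a LOC number as symbol were left out of the rankings. Over the 12 libraries the 5 closest were ADAMTS2 (Pearson r = 0.992), NAV1 (0.991), a cytoskeletal protein first described in neurons, MGP (0.989), an inhibitor of calcification, SPARC (0.989) and LOXL2 (0.989). These values largely reflect the distance between the seasons. Over the deviations of the 12 libraries from their season means, the 5 closest were SGCE (0.969), a sarcoglycan, SALL2 (0.965), a zinc finger factor, MMP16 (0.958), a membrane-type metalloproteinase, ADAMTS2 (0.958) and NAV1 (0.951). ADAMTS2 and NAV1 stood in both rankings. SALL2, unlike the other genes named, was not called between the seasons (log2 fold change −1.38, SE 0.76, adjusted p = 0.166), and filterByExpr removed it. The points of a ranking share libraries and scaling, and all 3 collagens were highest in winter in the libraries of bears 1509 and 1511. Without the winter library of bear 1509, r was 0.989 to 0.993 for the first 5 genes and 0.927 to 0.955 for the second 5.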

How the data were processed

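The authors made stranded poly-A libraries, sequenced single reads of 50 bases and used TopHat 2.1.1 to align them to the assembly ASM358476v1, discarding alignments with over 3 mismatches. They counted reads per gene on the opposite strand with featureCounts 1.6.2, and the deposited values are these raw counts. Lane assignments were not used here.

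Genes under 30 reads over 12 libraries were left out. TMM scaling and edgeR 4.0.16 (glmQLFit, glmQLFTest, season as the only term, R 4.3.3) gave fold changes, with Benjamini-Hochberg adjustment over 17290 genes. The SE of an edgeR fold change was computed as its absolute log2 value divided by the square root of the test's F statistic. Levels are TMM-scaled CPM, and log2 CPM carries a prior count of 2. Ratios had 0.5 reads added. Alternatives were the bear as a replicate block, DESeq2 1.42.0 with and without it, RLE, library totals, no filter, filterByExpr, limma voom (limma 3.58.1), stricter limits (adjusted p below 0.01 and a fold above 1.3 or below 0.77) and each bear left out, and, added after seeing the data, leaving out 1 winter library.

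Both libraries of a number come from the same bear. Once season means were removed, these pairs correlated at 0.0903 to 0.344 (median 0.236). Pairs of different bears ran from −0.214 to 0.142 (median −0.0634), so the ranges overlapped. The winter library of bear 1509 had the lowest value with its own summer library, 0.0903, and reached 0.0944 with that of bear 1317. No library was a copy of another (lowest chi-square per gene 35.8).

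The members and the gene lists were chosen with earlier results of these data known. The partner lists cover modification and folding, proteinases, crosslinking, fibril binding, receptors, degradation and transcription. The marker lists cover fibroblasts, tendon, cartilage, adipocytes, endothelium, macrophages and skeletal muscle, and SCX, MKX and SOX9 stand in a marker and a partner list. Named genes were all 10 members, the largest called fall and rise of each partner list, and the 5 genes closest in pattern to COL1A1, COL1A2 and COL3A1. For this closeness, genes with a LOC number as symbol were left out. Exon lengths and sequences of these genes were not used here.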

Additional observations from a re-analysis of the deposited data

Results flagged for a closer look

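In 28 groups of 6 libraries (the 10 genes and the 4 ratios in each season), 2 had a library far from the others by Dixon's test, where chance flags about 1 group in 20. Both were the winter library of bear 1511. COL11A1 lay there at 3.76 log2 CPM, with the other winter libraries at −0.19 to 1.24, and COL5A3 at 5.57 log2 CPM, with the others at 4.86 to 5.12. That library also had the highest winter sum of tendon cell markers and of fibroblast markers. The part of either in these values was not tested.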

How the results depend on the processing

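Each of the 10 genes kept the sign of its fold change under every alternative. COL1A1, COL1A2, COL3A1, COL5A1, COL5A2 and COL5A3 kept their calls in all 15 alternatives, with adjusted p at most 0.00472. COL2A1 lost its call in limma voom (log2 fold change −2.91) and was removed by filterByExpr, which gave no value. COL27A1 lost its call with the replicate block in edgeR (−0.57) and DESeq2 (−0.56) and without the winter library of bear 1509 (−0.61). With each bear left out it ran from −0.71 to −0.31, and COL11A1, called only without bear 1511, from −2.84 to −1.35. The replicate block changed no other call among the 10 genes. Of the 10 genes, 6 were lower under the stricter limits and 7 to 9 under the others, with 0 higher throughout. Of the partner genes, 43 to 60 were called lower and 7 to 10 higher. With each bear left out, the log2 difference of COL1A1 to COL1A2 ran from −1.13 to −0.95, that of COL5A2 to COL1A1 from 3.04 to 3.55, that of COL5A1 to COL5A2 from −1.03 to −0.92 and that of COL3A1 to COL1A1, which was not called, from 0.02 to 0.31. No ratio's p could then pass, since 5 bears allow no exact permutation p below 0.0625. Library totals in place of TMM moved the median of all genes by −0.08. Read numbers were low for COL24A1, at 11 to 40 per library, and COL2A1, at 1 to 15 in winter, which limits their precision.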
